A study of Mus musculus with 275 samples.

Results

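The genes described here encode the subunits of the serine/threonine protein phosphatases PP1 to PP6, measured in the striatum of mice bred for a strong or weak response to haloperidol. Members were all probes whose gene symbol is Ppp, a digit from 1 to 6, then c or r, with Ppp1r1b and Ppp1r13b left out, and only those expressed above background were analysed. The array held 90 such probes for 61 genes, among 23978 probes with a symbol for 16593 genes. Background on an array was set by 1341 probes of chemosensory receptor genes, which striatum should lack: a probe counted as expressed in a selection where it lay over percentile 95 of these on 25 percent or more of the arrays. This held for 72 member probes of 49 genes in F2, for 72 of 50 genes in HS4 and for 73 of 50 genes in HS-CC. In at least 1 selection 75 probes of 52 genes were expressed, and in all 3 selections 70 probes of 48 genes. No probe of the other 9 genes (Ppp1r14bl, Ppp1r14d, Ppp1r17, Ppp1r1c, Ppp1r27, Ppp1r32, Ppp1r3a, Ppp1r3b and Ppp1r7) passed in any selection.

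Haloperidol is an antipsychotic that blocks D2-like dopamine receptors and at higher doses leaves mice in fixed postures (catalepsy). The founders were an F2 intercross of C57BL/6J and DBA/2J, a heterogeneous stock from C57BL/6J, DBA/2J, BALB/cJ and LP/J (HS4), and a stock from the founder strains of the Collaborative Cross (HS-CC). Each was bred towards a responsive (High) and a non-responsive (Low) line, and striatal RNA from progeny of these lines was measured on Illumina bead arrays, with a separate array for each animal. The F2 selection gave 41 High and 42 Low animals, and HS4 and HS-CC gave 48 High and 48 Low animals each, 275 in all. The age of the arrayed animals and whether they had received the drug are not given in what was read. Each line came from 1 selection, so that drift and selection cannot be told apart. The lines were bred from families, and where animals share parents p-values over animals are too small. The HS4 sample titles end in a code that several animals of a line share, whose meaning the labels do not state. All tests here treated animals as independent.

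Some arrays stood apart before any test. The mean correlation of an array with the rest of its selection fell from a median of 0.986 to 0.933 (F2), from 0.962 to 0.525 (HS4) and from 0.978 to 0.643 (HS-CC). The share of all probes above background was 7.43% on 1 HS4 array and 10.97% on 1 HS-CC array, against medians of 55.2% and 54.1%. Arrays more than 2.5 SD below the mean of that correlation numbered 3 (F2), 4 (HS4) and 1 (HS-CC), and repeating the rule until none was left removed 12, 21 and 9. The sex on the HS4 labels matched the split in the Y-linked transcript Eif2s3y on 41 of 96 arrays. The HS4 groups are therefore named as labelled, and every HS4 direction rests on those labels. Medium spiny neuron markers were measured above background in every selection (12 probes of 11 genes).

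Protein phosphatases reverse the work of serine/threonine kinases. A catalytic subunit is shared among many holoenzymes, and its regulatory partners set where it acts and on what. In spiny neurons PP1 is inhibited when protein kinase A phosphorylates DARPP-32, the product of Ppp1r1b, and calcineurin (PP3), which is activated by calcium, removes that phosphate. Spinophilin (Ppp1r9b) and neurabin (Ppp1r9a) hold PP1 at dendritic spines, and PP2A is built from a scaffold A, a catalytic C and an exchangeable B subunit.

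The sequences below are the 250 bases upstream of the RefSeq start site (GRCm38.p6) of 3 of the 4 members that differed between the HS-CC lines, followed by those of Ppp1r9b and Ppp2r2c, a pair whose values moved together over animals. They are shown so that the genes behind these results can be looked at directly. They are written 5′ to 3′ on the strand of the gene, with capitals for a CCAAT box, a GC box (GGGCGG) or an E box. The E box is CACGTG, and motifs were searched on either strand. The windows are chr14:20546574-20546823, minus strand, for Ppp3cb, chr19:36736605-36736854, minus strand, for Ppp1r3c, chrX:7574282-7574531, minus strand, for Ppp1r3f, chr11:94990962-94991211, plus strand, for Ppp1r9b, and chr5:36868260-36868509, plus strand, for Ppp2r2c.
Ppp3cb: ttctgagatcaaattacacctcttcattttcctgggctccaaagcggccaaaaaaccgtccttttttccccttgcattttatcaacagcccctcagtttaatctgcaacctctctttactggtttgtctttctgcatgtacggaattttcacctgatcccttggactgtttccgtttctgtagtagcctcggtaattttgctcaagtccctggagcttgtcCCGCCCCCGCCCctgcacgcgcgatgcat
Ppp1r3c: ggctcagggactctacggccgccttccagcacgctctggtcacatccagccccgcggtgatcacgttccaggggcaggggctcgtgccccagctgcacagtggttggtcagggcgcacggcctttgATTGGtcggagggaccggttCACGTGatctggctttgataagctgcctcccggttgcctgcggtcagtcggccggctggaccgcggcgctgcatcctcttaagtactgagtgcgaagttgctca
Ppp1r3f: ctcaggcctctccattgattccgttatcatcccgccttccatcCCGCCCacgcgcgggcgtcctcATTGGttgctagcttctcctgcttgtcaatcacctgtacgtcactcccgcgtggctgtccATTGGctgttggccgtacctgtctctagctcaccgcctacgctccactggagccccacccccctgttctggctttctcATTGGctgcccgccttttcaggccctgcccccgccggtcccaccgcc
Ppp1r9b: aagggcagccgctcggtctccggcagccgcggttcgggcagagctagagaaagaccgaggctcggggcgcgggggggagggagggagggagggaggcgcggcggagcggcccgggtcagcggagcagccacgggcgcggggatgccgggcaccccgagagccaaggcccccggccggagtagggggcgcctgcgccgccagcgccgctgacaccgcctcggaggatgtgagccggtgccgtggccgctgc
Ppp2r2c: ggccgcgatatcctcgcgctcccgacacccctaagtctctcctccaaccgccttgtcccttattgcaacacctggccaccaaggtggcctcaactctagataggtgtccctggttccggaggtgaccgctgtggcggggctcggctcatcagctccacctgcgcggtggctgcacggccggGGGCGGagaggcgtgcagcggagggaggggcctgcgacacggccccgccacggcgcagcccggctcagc
The Ppp3cb window held 2 GC boxes, 29 and 23 bases before the start. The Ppp1r3c window held 1 CCAAT box and 1 E box, and the Ppp1r3f window 3 CCAAT boxes and 1 GC box. The Ppp2r2c window held 1 GC box, and none of the searched motifs was found in that of Ppp1r9b, whose GC content was 78%, against a median of 52.4% over all 32851 promoters of the table. A GC box lay in 32.7% of all those promoters, a CCAAT box in 33.8% and an E box in 6.02%. Of 52 expressed member genes, 41 had a promoter in the table and 34 had exactly 1. Among these 34, a GC box was found in 25, a CCAAT box in 11 and a TATA box (TATAAA, in 12.4% of all promoters) in 1. The cAMP response element (TGACGTCA, in 1.55%) was found in 3, an E box in 1 and the AP-1 site (TGACTCA, in 4.46%) in 0. The shares over all promoters took every promoter, whether or not its gene was expressed or had others. The 34 and all promoters were thus not filtered alike.

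In the HS-CC lines 4 member probes were lower in High animals and none was higher. They were Ppp3cb, the beta catalytic subunit of calcineurin, Ppp1r3c and Ppp1r3f, both of which direct PP1 to glycogen, and 1 of 2 probes of Ppp2r5e, a B' subunit of PP2A. Their differences ran from -0.28 to -0.13 on the log2 scale of the deposited values. That is 4 of 73 member probes at an adjusted p under 0.1 (limma, Benjamini-Hochberg over 15119 expressed probes), or 5.48%, beside 3.41% of all expressed probes. For the lower direction alone the share over all probes was 2.22%. An unadjusted p under 0.05 was reached by 12 member probes, 11 of them lower in High, and by 12.3% of all probes. Over all probes 1164 of 15119 reached it with a lower value in High. Of the 73 differences, 51 were negative, beside 8140 of 15119 over all expressed probes. The median of the 73 was -0.016, beside a median of -0.0033 over all expressed probes.

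**Figure D1:**
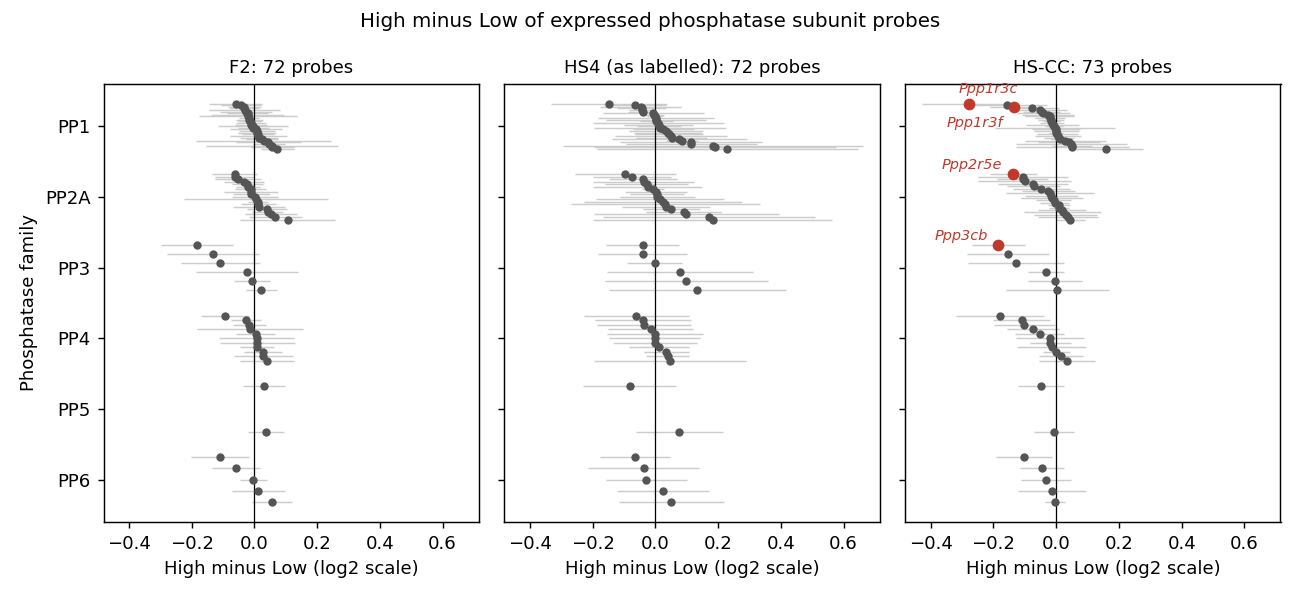
High minus Low of every expressed phosphatase subunit probe, on the log2 scale (x axis), grouped by phosphatase family (y axis), with the 95% interval of limma as a bar; red points have an adjusted p under 0.1. In HS-CC 4 probes passed and all lay below 0, whereas none of 72 probes passed in F2 or in the arrays labelled HS4.

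Ppp3cb had values between 13.18 and 14.41 in the 48 HS-CC High animals, with a median of 14.02. In the 48 Low animals its values lay between 13.70 and 14.51, with a median of 14.25. The ranges overlapped widely, yet 40 of 48 High animals lay below the Low median, and the difference was -0.18 (SE 0.043, n = 48 and 48, limma adjusted p = 0.0055). Over every alternative that tested it, the difference stayed between -0.19 and -0.16 with adjusted p between 0.0055 and 0.0089. In F2 the medians of the same probe were 13.89 in High (lowest 13.72, highest 14.30) and 13.91 in Low (13.67 and 14.28), with a 95% interval of the difference from -0.066 to 0.051. In the arrays labelled HS4 that interval ran from -0.090 to 0.086.

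Ppp1r3c encodes PTG (protein targeting to glycogen), which brings PP1 to glycogen and its enzymes. Its values ran from 11.06 to 12.84 in the HS-CC High animals (median 12.08) and from 11.52 to 12.99 in the Low animals (median 12.36). The groups overlapped, 37 of 48 High animals lay below the Low median and 5 lay below every Low animal. The difference was -0.28 (SE 0.075, adjusted p = 0.024), the largest in size among the 73 member probes. In F2 the High animals ran from 11.31 to 12.20 (median 11.80) and the Low animals from 11.43 to 12.05 (median 11.81), with a difference of 0.0044 (SE 0.041, adjusted p = 0.99). Astrocytes are the main site of glycogen in brain, and in HS-CC 2 of 12 astrocyte marker probes were also lower in High: Slc1a2, a glutamate transporter (-0.20, SE 0.065, adjusted p = 0.099), and Aldh1l1 (-0.10, SE 0.029, adjusted p = 0.035). Of those 12 probes 11 had negative differences, with a median of -0.044, and their mean standardised level ran from -1.07 to 0.79 in High and from -0.84 to 1.29 in Low animals. Over the 96 HS-CC animals Ppp1r3c followed that mean with r = 0.58 (Spearman 0.56, permutation adjusted p = 0.00034 for each, r = 0.58 without the 2 animals farthest from its median). In F2 the relation was weaker, at r = 0.31 (Spearman 0.25, permutation adjusted p = 0.028 and 0.13). Over all 96 HS4 arrays r was 0.51 (Spearman 0.52). With outlying arrays removed repeatedly r was 0.25, 0.45 and 0.60 over F2, HS4 and HS-CC. Other markers moved in the same comparison: 14 of 15 oligodendrocyte marker probes had positive differences (median 0.069), with Cldn11 higher in High (0.30, SE 0.080, adjusted p = 0.019), as did 8 of 8 choroid plexus marker probes (median 0.064), none of which passed. The part of these markers in the Ppp1r3c difference was not tested, and in bulk tissue fewer cells of a type and less RNA per cell cannot be told apart.

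Ppp1r3f, an X-linked relative of Ppp1r3c, ran from 9.13 to 10.50 in the HS-CC High animals (median 10.24) and from 9.98 to 10.73 in the Low animals (median 10.35). Of the High animals 40 of 48 lay below the Low median, and the difference was -0.13 (SE 0.040, adjusted p = 0.048). The array with 10.97% of probes above background is a High animal, and without it the difference was -0.11 (adjusted p = 0.039). With array weights it was -0.077 (adjusted p = 0.090) and with repeated removal -0.088 (adjusted p = 0.063). Eif2s3y was high in 18 High and 23 Low animals of HS-CC, and with that split as a term the difference was -0.13 (adjusted p = 0.068). In F2, with medians of 9.93 in High and 9.90 in Low, the 95% interval was -0.040 to 0.063.

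Ppp2r5e encodes the epsilon B' subunit, which directs PP2A to substrates with a short linear motif. Its probe ILMN_1217444 ran from 9.13 to 10.15 in the HS-CC High animals (median 9.88) and from 9.62 to 10.30 in the Low animals (median 9.97), and 38 of 48 High animals lay below the Low median. The difference was -0.14 (SE 0.038, adjusted p = 0.028), and it was -0.089 with an adjusted p of 0.11 once outlying arrays had been removed repeatedly. The other probe, ILMN_2623244, had a difference of 0.038 (SE 0.048, adjusted p = 0.81). Between the probes, r was -0.00069 in HS-CC over all animals (Spearman -0.23, permutation p = 0.028), -0.33 without the outlying array and -0.30 with repeated removal, so that the call rests on 1 of the gene's probes. Ppp3cb, Ppp1r3c and Ppp1r3f had 1 probe each on the array, so no other probe stands beside their calls.

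**Figure D2:**
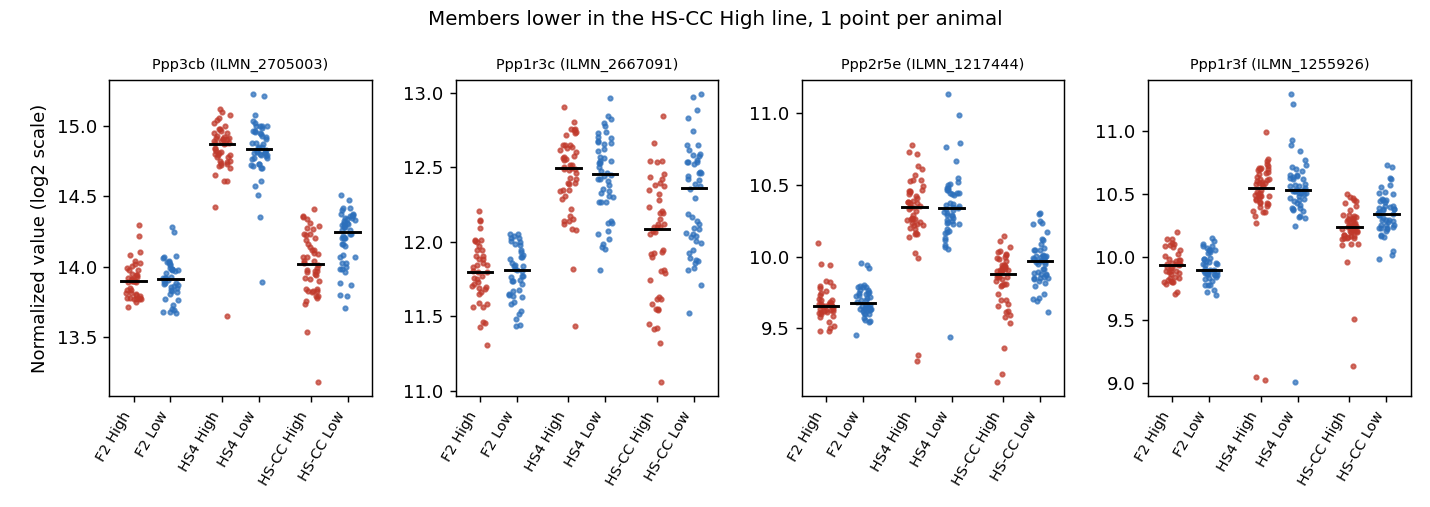
Normalized values on the log2 scale (y axis) of the 4 probes called in HS-CC, 1 point per animal, in the High (red) and Low (blue) lines of each selection (x axis), with group medians as black bars. In HS-CC the High medians lie below the Low medians (for Ppp3cb 14.02 and 14.25) while the ranges overlap; levels are not comparable between selections, which were normalized separately.

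Whether these differences were particular to HS-CC was asked with a single fit of all groups. The difference of High minus Low between HS-CC and F2 passed for 0 of 71 member probes, and for 0.605% of the 14547 probes expressed in both selections (88 probes), at an adjusted p under 0.1. At an unadjusted p under 0.05 there were 5 member probes, and 4.98% of all probes. The smallest p belonged to Ppp1r3c (-0.28, SE 0.087, adjusted p = 0.18), followed by Ppp3cb (-0.18, SE 0.058, adjusted p = 0.26). Both passed when outlying arrays were left out (adjusted p = 0.062 and 0.054), where the count over all probes rose from 88 to 202. Of the members Ppp3cb alone passed when the HS4 arrays did not enter the spread (adjusted p = 0.073, with 0.10 for Ppp1r3c), where 309 probes passed in all.

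Along the chromosomes, the 50 protein-coding genes nearest in order to each called member, split evenly over both sides, also held calls in HS-CC. Around Ppp2r5e 5 of 44 expressed probes passed, among them Atp6v1d (-0.43, SE 0.062, adjusted p = 5.1e-07) and Churc1 (-0.27, SE 0.071, adjusted p = 0.016), while Hspa2 was higher in High (0.13, SE 0.042, adjusted p = 0.088). Around Ppp3cb 3 of 32 passed, among them Vdac2, a mitochondrial outer membrane channel (-0.47, SE 0.090, adjusted p = 0.00030), and Fut11, which was higher (0.059, SE 0.018, adjusted p = 0.063). Around Ppp1r3c 2 of 33 passed (Rbp4 and Lipa, both lower in High), and around Ppp1r3f 0 of 21. Over all expressed probes the share was 3.41%. The part of linked neighbours in the members' differences was not tested.

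The remaining members that came nearest in HS-CC did not pass. Inhibitor 2 of PP1 (Ppp1r2) had medians of 14.05 in High and 13.90 in Low animals (0.16, SE 0.058, adjusted p = 0.15). Ppp2r3c, a B'' subunit, gave -0.11 (adjusted p = 0.19), and the probes of Ppp4r4, a regulatory subunit of PP4, gave -0.18 and -0.11 (adjusted p = 0.21 and 0.26). Spinophilin (Ppp1r9b) ran from 11.70 to 13.56 in High (median 12.99) and from 12.31 to 13.76 in Low animals (median 13.11), a difference of -0.16 (SE 0.064, adjusted p = 0.24). Probe ILMN_2698353 of Ppp6r3, a regulatory subunit of PP6, gave -0.10 (adjusted p = 0.30) and probe ILMN_2873510 of Ppp4r1 -0.10 (adjusted p = 0.38). Without the outlying array, Ppp1r2 (0.17, adjusted p = 0.099) and Ppp4r4 probe ILMN_1246165 (-0.21, adjusted p = 0.074) passed as well.

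In F2 none of the 72 member probes passed, while 0.922% of the 15300 expressed probes did (141 probes). At an unadjusted p under 0.05 there were 4 member probes, and 8.76% of all probes. The smallest p was that of Ppp3ca, the alpha catalytic subunit of calcineurin, at probe ILMN_2971286. Its values ran from 14.31 to 15.58 in High (median 15.003) and from 14.43 to 15.93 in Low animals (median 15.16), and 33 of 41 High animals lay below the Low median. The difference was -0.18 (SE 0.058, adjusted p = 0.16), and it reached an adjusted p of 0.061 once outlying arrays had been removed repeatedly and 0.015 with array weights. The second probe of the gene (ILMN_2611431) gave -0.13 (SE 0.074, adjusted p = 0.63) and the third (ILMN_1227899) -0.023 (SE 0.081). Over the alternatives the second lay between -0.20 and -0.13, with adjusted p from 0.041 to 0.79. The third lay between -0.068 and -0.021, with adjusted p of 0.65 or more. Ppp3r1, the calcium-binding B subunit of calcineurin, gave -0.11 (SE 0.063, adjusted p = 0.66). Of the 6 calcineurin probes 5 had negative differences in F2, with a median of -0.066 beside -0.00073 over all probes. Of the 12 spiny neuron marker probes 9 had negative differences as well, with a median of -0.11, and Bcl11b, a transcription factor of these neurons, passed (-0.28, SE 0.060, adjusted p = 0.0074). Their mean standardised level ran from -1.93 to 0.90 in High and from -1.84 to 1.39 in Low animals, and their part in the calcineurin values was not tested.

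Of the other members nearest to the threshold in F2, Ppp1r35, which encodes a centriole protein, gave 0.073 (SE 0.027, adjusted p = 0.29) at probe ILMN_2662283, Ppp4r4 probe ILMN_2725215 -0.093 (adjusted p = 0.40), Ppp6r3 probe ILMN_2698353 -0.11 (adjusted p = 0.44), Ppp2r5a -0.063 (adjusted p = 0.57) and Ppp1cc 0.047 (adjusted p = 0.63). That probe of Ppp1r35 passed without the 3 outlying arrays (0.081, adjusted p = 0.069), whereas ILMN_1227103 of the same gene gave -0.0030 over all arrays (adjusted p = 0.99).

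In the arrays labelled HS4 none of 72 member probes passed, beside 0.046% of the 15219 expressed probes (7 probes). At an unadjusted p under 0.05 there were 2 member probes, and 3.22% of all probes. The median standard error of a member's difference was 0.072 in HS4, against 0.032 in F2 and 0.042 in HS-CC; its part in the low count was not tested. Probe ILMN_2724066 of Ppp1cb, the beta catalytic subunit of PP1, gave 0.085 (SE 0.026, adjusted p = 0.63) and passed at 0.062 (adjusted p = 0.038) once outlying arrays had been removed repeatedly. The other probes of that gene gave 0.23 and 0.19, with standard errors of 0.21 and 0.19.

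The catalytic subunits, 11 genes with 18 expressed probes, gave 1 call over the 3 selections, that of Ppp3cb in HS-CC. For PP1 the 3 probes of Ppp1ca lay between -0.041 and 0.030 in HS-CC and between -0.031 and -0.0036 in F2, and Ppp1cc gave -0.014 in HS-CC. Ppp2ca and Ppp2cb, the catalytic subunits of PP2A, gave -0.074 (SE 0.056) and -0.10 (SE 0.075) in HS-CC, and 0.016 and -0.032 in F2. Ppp3ca probe ILMN_2971286 had, in HS-CC as in F2, a lower mean in High (-0.15, SE 0.066, adjusted p = 0.28), whereas its probe ILMN_2611431 gave 0.0041 (SE 0.082). Ppp3cc gave -0.033, Ppp4c -0.073, the probes of Ppp5c -0.047 and -0.0069, and Ppp6c -0.013 in HS-CC, all with adjusted p of 0.507 or more.

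**Figure D3:**
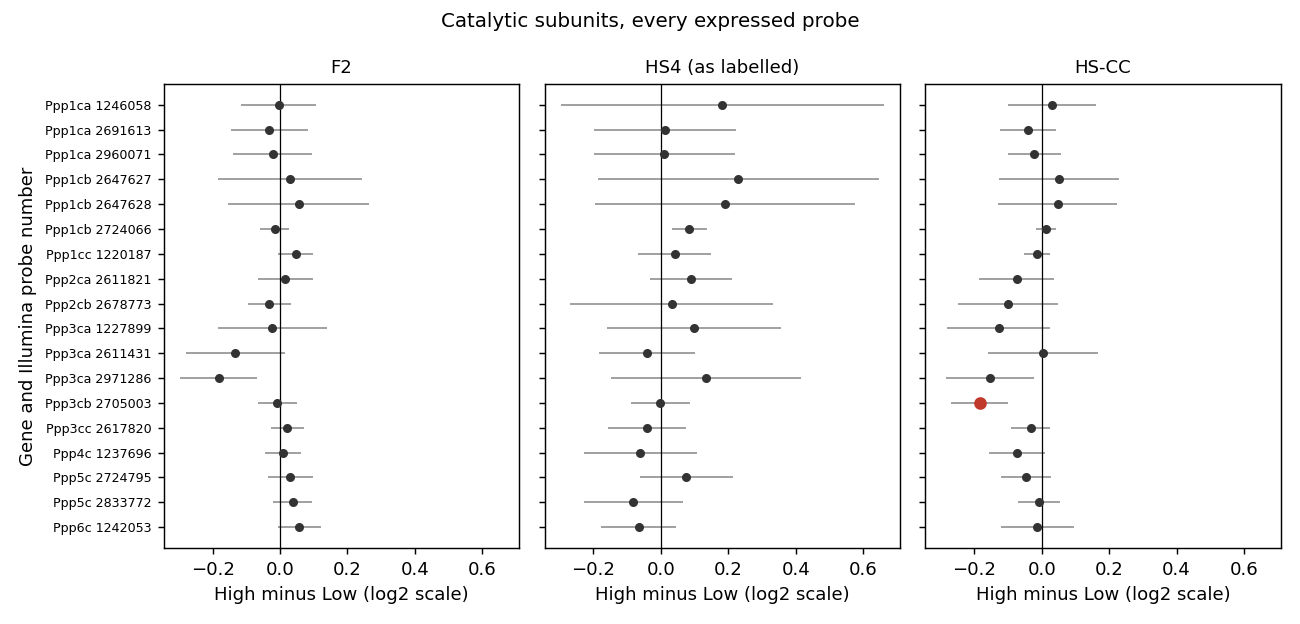
High minus Low on the log2 scale (x axis) of each of 18 probes of the catalytic subunit genes (y axis), with the 95% interval of limma, in each selection; the red point, Ppp3cb in HS-CC (-0.18), is the only probe with an adjusted p under 0.1. The intervals were widest in the arrays labelled HS4.

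Other scaffold and targeting subunits also did not pass. Ppp2r1a, the main scaffold of PP2A, gave -0.063 (SE 0.036) in F2 and 0.021 (SE 0.062) in HS-CC. The 4 probes of the B subunits (Ppp2r2b, Ppp2r2c and Ppp2r2d) lay between -0.071 and -0.0052 in HS-CC and between -0.022 and 0.11 in F2. Neurabin (Ppp1r9a) gave -0.060 in F2 and 0.041 in HS-CC, and inhibitor 1 (Ppp1r1a), which restrains PP1 when phosphorylated by protein kinase A, gave 0.013 and -0.053. The 4 probes of Ppp2r5d, the delta B' subunit, lay between -0.052 and 0.013 in F2. The 2 glycogen-targeting genes that were expressed, Ppp1r3c and Ppp1r3f, both passed in HS-CC, and gave 0.0044 and 0.012 in F2.

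Genes that act on these phosphatases without belonging to them were read from a list of 35 regulators, 29 of them on the array. In HS-CC 2 of 42 expressed probes were lower in High and 0 higher, or 4.76% called, near the 3.41% of all probes. Lcmt1, the methyltransferase that modifies the tail of the PP2A catalytic subunit, gave -0.57 (SE 0.083, adjusted p = 5.1e-07) at probe ILMN_2758728. Its other probes, ILMN_2943476 and ILMN_2943477, did not pass, at -0.035 (adjusted p = 0.71) and -0.065 (adjusted p = 0.73). Arpp19, an inhibitor of PP2A with a B subunit of the B55 type, gave -0.21 (SE 0.039, adjusted p = 0.00017). In F2 and in the arrays labelled HS4 0 of 44 and 0 of 41 passed. Of the separate PP2C family and its relatives, Phlpp1 was higher (0.24, SE 0.068, adjusted p = 0.036) and 1 probe of Pdp2 lower (-0.19, SE 0.048, adjusted p = 0.013) in HS-CC High animals, out of 28 probes. The other probe of Pdp2 gave -0.034 (adjusted p = 0.36), and none of the family passed in F2 or HS4.

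The median member varied between animals of a line more than the median probe did. The median standard deviation within lines, without outlying arrays, was 0.133 for members in F2, beside 0.110 for all expressed probes. It was 0.251 in HS4, beside 0.193, and 0.184 in HS-CC, beside 0.136. The probes ILMN_2647627 and ILMN_2647628 of Ppp1cb were among the most variable members in every selection, at 0.36 and 0.38 for F2, 0.94 and 0.90 for HS4, and 0.39 and 0.37 for HS-CC. In HS4 the widest was Ppp1ca probe ILMN_1246058, at 1.19. Ppp1r12c probe ILMN_1236118, of a myosin phosphatase targeting subunit, varied little, at 0.071, 0.066 and 0.064.

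Covariation was measured over the animals of a selection for the 70 probes expressed in all 3, which form 2386 pairs of different genes. The median absolute correlation was 0.253 in F2, beside 0.167 over all pairs of expressed probes, and 0.187 in HS-CC, beside 0.163. The values over all pairs take every probe expressed in that selection and keep pairs within 1 gene. The members and all pairs were thus not filtered alike. With outlying arrays removed repeatedly it was 0.163 (F2), 0.203 (HS4) and 0.162 (HS-CC), beside 0.129, 0.146 and 0.117 over all probes. Positive and negative correlations were then about equally frequent, with 50.2%, 51.0% and 51.4% positive. Absolute correlations over 0.5 were held by 339 pairs in F2, or 14.2%, beside 4.67% of all pairs of expressed probes. In HS-CC they were held by 122 pairs, or 5.11%, fewer than the 5.61% of all pairs. Once outlying arrays had been removed the shares were 4.44% in F2 (all pairs 1.19%) and 2.18% in HS-CC (0.978%). Pairs were tested with 100000 permutations, and their p-values adjusted over the 2386 pairs. In HS4, 21 arrays lay apart from the rest. For the pairs below an HS4 correlation is over the remaining 75 arrays unless stated otherwise. Values over all 96 are given only for some pairs.

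Probes of 1 gene give the scale against which pairs of genes can be read. The Ppp1cb probes ILMN_2647627 and ILMN_2647628 correlated at 0.91, 0.94 and 0.82 in F2, HS4 and HS-CC with outlying arrays removed, those of Ppp4r3b at 0.81, 0.91 and 0.81, and the Ppp1ca probes ILMN_2691613 and ILMN_2960071 at 0.94, 0.95 and 0.81. The probes of Ppp5c gave -0.20, 0.57 and -0.035 and those of Ppp2r5e 0.094, 0.50 and -0.30. In F2 and HS-CC the probes of those genes thus did not report the same signal.

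Pairs of different genes were ranked by their lowest absolute correlation over the selections, over all animals and with the outlying rule applied once. The pair of spinophilin (Ppp1r9b) and Ppp2r2c, the gamma B subunit of PP2A, was among the leading 5 in each ranking. The rule applied once left 92 HS4 arrays, over which this pair gave r = 0.87. No ranking was made with outlying arrays removed repeatedly. In F2 it gave r = 0.62 (Spearman 0.59, adjusted p = 0.00022 or less, n = 83) and 0.65 without the 2 animals farthest from the Ppp1r9b median. In HS-CC it gave r = 0.69 (Spearman 0.73, adjusted p = 0.00031 or less, n = 96) and 0.71 without 2 animals. Without all outlying arrays r was 0.55 in F2 and 0.75 in HS-CC, but 0.22 over the 75 HS4 arrays, where Spearman's over all 96 was 0.50. The F2 arrays with the lowest values of Ppp2r2c, near 10, had been removed in that step. These values are for probe ILMN_1228308 of Ppp2r2c, and those of its other expressed probe, ILMN_2760691, are not given here.

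**Figure D4:**
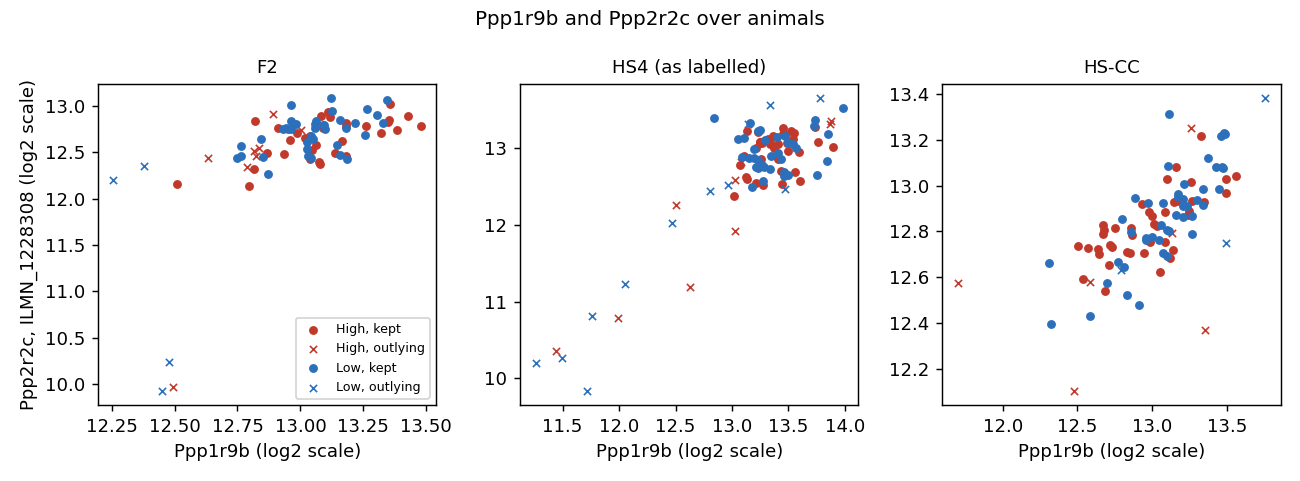
Values of Ppp1r9b (x axis) and Ppp2r2c probe ILMN_1228308 (y axis) on the log2 scale, 1 point per animal, High in red and Low in blue, with crosses for outlying arrays. The points rise together in F2 (r = 0.62) and HS-CC (r = 0.69), and in the arrays labelled HS4 mainly through arrays that lie apart.

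Of the other 4 such pairs over all animals 3 joined PP2A subunits, and of the 5 leading pairs with the rule applied once 1 did (Ppp2cb and Ppp2r5c). Those 3 pairs are formed by the same 3 probes, so they are not separate pairs to set beside a share over all pairs. Among all 2386 pairs 6.04% joined PP2A subunits. Ppp2cb and Ppp2r5c probe ILMN_3121851 gave r = 0.62 in F2 (Spearman 0.59) and 0.87 in HS-CC (Spearman 0.50, and 0.55 without 2 animals), and 0.62, 0.65 and 0.58 in F2, HS4 and HS-CC with outlying arrays removed. Ppp2cb and Ppp2r5a gave 0.64 (Spearman 0.64) and 0.82 (Spearman 0.37), and with such arrays removed 0.63, 0.42 and 0.45. Ppp2r5a and Ppp2r5c gave 0.60 (Spearman 0.55) and 0.78 (Spearman 0.42), and 0.46, 0.31 and 0.45. All these tests passed, with adjusted p of 0.0026 or less, but the HS-CC values of r rest in part on 2 animals, without which Ppp2cb and Ppp2r5a fell to 0.36. Within the HS-CC High line the 3 pairs, in the order above, gave 0.90, 0.84 and 0.80. Without the outlying High array these fell to 0.48, 0.13 and 0.11. In the Low line they gave 0.83, 0.76 and 0.77. Ppp1ca probe ILMN_1246058 and Ppp4r4 probe ILMN_2725215 gave 0.67 (Spearman 0.66) and 0.58 (Spearman 0.45, and 0.47 without 2 animals), and 0.73, 0.75 and 0.42 with outlying arrays removed.

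Subunits of 1 holoenzyme did not share a single pattern. The scaffold Ppp2r1a varied with Ppp2cb, at r = 0.46 in F2 (Spearman 0.45, adjusted p = 0.00035 or less, and 0.44 without 2 animals) and, with outlying arrays removed, 0.45, 0.59 and 0.58 over F2, HS4 and HS-CC. In HS-CC over all animals that pair gave r = 0.17 (adjusted p = 0.17) and a Spearman's of 0.49 (adjusted p = 0.00031, with r = 0.54 without 2 animals). With Ppp2ca, the other catalytic subunit, the same scaffold gave r = -0.42 in F2 (Spearman -0.33, adjusted p = 0.012 or less, and -0.44 without 2 animals) and -0.27 in HS-CC (Spearman -0.30, adjusted p = 0.027 or less, and -0.30 without 2 animals), and -0.37, 0.29 and -0.33 with outlying arrays removed. The calcineurin B gene Ppp3r1 and Ppp3cb gave 0.19 in F2 (adjusted p = 0.14) and 0.35 in HS-CC (adjusted p = 0.0042, but Spearman 0.25 with 0.057, and r = 0.21 without 2 animals). With Ppp3ca probe ILMN_2611431, Ppp3r1 gave -0.47 in F2 (Spearman -0.35, adjusted p = 0.0076 or less, and -0.36 without 2 animals) and 0.25 in HS-CC (Spearman 0.24, adjusted p = 0.061 or less, and 0.23 without 2 animals). The other Ppp3ca probes did not pass with Ppp3r1 by both tests in F2: ILMN_2971286 gave -0.088 (Spearman -0.11, adjusted p = 0.52 and 0.49) and ILMN_1227899 -0.24 (Spearman -0.19, adjusted p = 0.052 and 0.19). In HS-CC ILMN_2971286 passed at 0.26 (Spearman 0.28, adjusted p = 0.032 and 0.028), and ILMN_1227899 gave 0.16 (Spearman 0.088, adjusted p = 0.21 and 0.56). Ppp1ca probe ILMN_2691613 and Ppp1r9b gave -0.45 in F2 (Spearman -0.35, adjusted p = 0.0095 or less, and -0.39 without 2 animals) and 0.45 in HS-CC (Spearman 0.49, adjusted p = 0.00036 or less, and 0.48 without 2 animals). These signs were opposite and each past the threshold, and the difference between the selections was not tested. With outlying arrays removed the F2 value was -0.23 and the HS-CC value 0.49. Probe ILMN_1246058 of Ppp1ca passed in neither selection with Ppp1r9b, at r = -0.14 in F2 (Spearman -0.093, adjusted p = 0.27 and 0.56) and 0.036 in HS-CC (Spearman 0.16, adjusted p = 0.80 and 0.24). Probe ILMN_2960071 passed in both, at -0.46 in F2 (Spearman -0.35, adjusted p = 0.0077 or less) and 0.23 in HS-CC (Spearman 0.27, adjusted p = 0.064 and 0.035). Ppp1cc and Ppp1r9b gave 0.18 in F2 (Spearman 0.25, adjusted p = 0.16 and 0.067) and -0.29 in HS-CC (Spearman -0.21, adjusted p = 0.019 and 0.12, and r = -0.20 without 2 animals). With outlying arrays removed that pair gave 0.21, 0.37 and -0.19 over F2, HS4 and HS-CC. In F2 Ppp6c and Ppp6r1 gave -0.39 (Spearman -0.51, adjusted p = 0.0013 or less, and -0.34 without 2 animals). In HS-CC over all animals they gave r = -0.059 (adjusted p = 0.65) and a Spearman's of -0.31 (adjusted p = 0.013). Over all HS4 arrays their r was positive, at 0.37 (adjusted p = 0.0032), while Spearman's was -0.048 (adjusted p = 0.73). With outlying arrays removed repeatedly they gave -0.65, -0.36 and -0.33 over F2, HS4 and HS-CC, and 0.012 in HS4 with the rule applied once. Ppp4c and Ppp4r2 gave -0.28 in F2 (Spearman -0.26, adjusted p = 0.065 or less, and -0.21 without 2 animals). In HS-CC that pair gave -0.21 (Spearman -0.16, adjusted p = 0.083 and 0.26). With outlying arrays removed repeatedly it gave -0.18, -0.22 and -0.13 over F2, HS4 and HS-CC, and -0.061 in F2 with the rule applied once.

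The genes whose values followed the called members most closely in all 3 selections were different for each member. Outlying arrays were left out here with the rule applied once, so that 92 HS4 arrays remained. Repeated removal was not used for partners. By the lowest absolute correlation over the selections, the first partner of Ppp3cb was Rpl37a, a ribosomal protein gene (-0.52, -0.41 and -0.43 over F2, HS4 and HS-CC). That of Ppp1r3c was Cyp2j9 (0.49, 0.70 and 0.55), that of Ppp2r5e probe ILMN_1217444 was Ccdc174 (0.48, 0.53 and 0.53) and that of Ppp1r3f was Slc1a4, a neutral amino acid transporter (0.58, 0.49 and 0.48). With all arrays kept, the leading partners were Pik3c3, Sat1, Pcyt1b and Slc1a4, so that only that of Ppp1r3f was the same.

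Several members moved with the mean of the spiny neuron markers over animals. With outlying arrays removed repeatedly, an absolute correlation over 0.5 was held by 16 of 72 members in F2 (22.2%, beside 8.82% of all expressed probes other than the markers), 21 of 72 in HS4 (29.2%, beside 12.8%) and 4 of 73 in HS-CC (5.48%, beside 2.85%). Markers of cortical glutamatergic neurons gave 9, 18 and 2 such members (12.5%, 25% and 2.74%, beside 6.32%, 12.4% and 4.45% of all expressed probes). Those of microglia gave 3, 4 and 2 (4.17%, 5.56% and 2.74%, beside 3%, 3.4% and 3.45%). In HS-CC both shares lay below those over all probes. Over all animals, both tests passed in F2 for 23 members with the spiny neuron, 26 with the microglia, 20 with the cortical and 7 with the astrocyte markers. In HS4 these were 39, 23, 31 and 38, and in HS-CC 21, 13, 9 and 15. Only members were tested in this way, so these counts have no share over all probes beside them. Ppp1ca probe ILMN_2691613 gave r = 0.81 in F2 (Spearman 0.79, adjusted p = 0.00021 or less over 576 relations) and 0.68 in HS-CC (Spearman 0.54, adjusted p = 0.00034 over 584). Without the 2 animals farthest from the median of the marker mean these were 0.79 and 0.53, and with outlying arrays removed 0.85, 0.84 and 0.52 over F2, HS4 and HS-CC. Neurabin (Ppp1r9a) gave 0.59 in F2 and 0.59 in HS-CC (Spearman 0.55 and 0.51, and 0.54 in each without 2 animals), and 0.70, 0.80 and 0.49 with outlying arrays removed. Ppp3ca probe ILMN_2971286 gave 0.67 and 0.61 (Spearman 0.59 and 0.46), and 0.66, 0.69 and 0.44. Ppp4r4 probe ILMN_2725215 gave 0.69 and 0.45 (Spearman 0.69 and 0.45), and 0.76, 0.82 and 0.42. Ppp1r26, a nuclear partner of PP1, ran the other way, at -0.76 in F2 and -0.74 in HS-CC (Spearman -0.79 and -0.65), and -0.82, -0.87 and -0.69 with outlying arrays removed. Each of these relations passed in both selections, with adjusted p of 0.00092 or less. Without 2 animals Ppp3ca gave 0.62 and 0.44, Ppp4r4 0.67 and 0.42, and Ppp1r26 -0.76 and -0.69.

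Of the called members, Ppp3cb gave 0.022, -0.15 and -0.072 over F2, HS4 and HS-CC with outlying arrays removed, and Ppp1r3c 0.14, 0.21 and -0.14. Ppp1r3f gave -0.25, -0.50 and -0.17, and probe ILMN_1217444 of Ppp2r5e -0.29, -0.55 and -0.16, the larger values lying in HS4. The lowest marker mean of all HS-CC animals, -4.22, belonged to a Low animal, against -1.53 for the lowest High animal. Ppp1r14a, which encodes the myosin phosphatase inhibitor CPI-17, followed oligodendrocyte markers, but its probes differed between selections. Probe ILMN_2729363 gave r = 0.58 with their mean in HS-CC (Spearman 0.52, adjusted p = 0.00034, and 0.46 without 2 animals) and 0.39 in F2 (Spearman 0.40, adjusted p = 0.0037 or less, and 0.36 without 2 animals). With outlying arrays removed it gave 0.42, 0.73 and 0.62. Over all 96 HS4 arrays its r was -0.026 (adjusted p = 0.89) and Spearman's was 0.24 (adjusted p = 0.056). The other probe, ILMN_2659824, gave 0.60, 0.66 and 0.19 with such arrays removed. Over all animals it gave 0.079 in F2 (Spearman 0.42, adjusted p = 0.70 and 0.0011) and 0.41 in HS4 (Spearman 0.47, adjusted p = 0.00016 or less). In HS-CC it gave 0.29 (Spearman 0.20, adjusted p = 0.041 and 0.23). All values of a selection share 1 normalization, and no level of 1 probe was set against that of another.

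**Figure D5:**
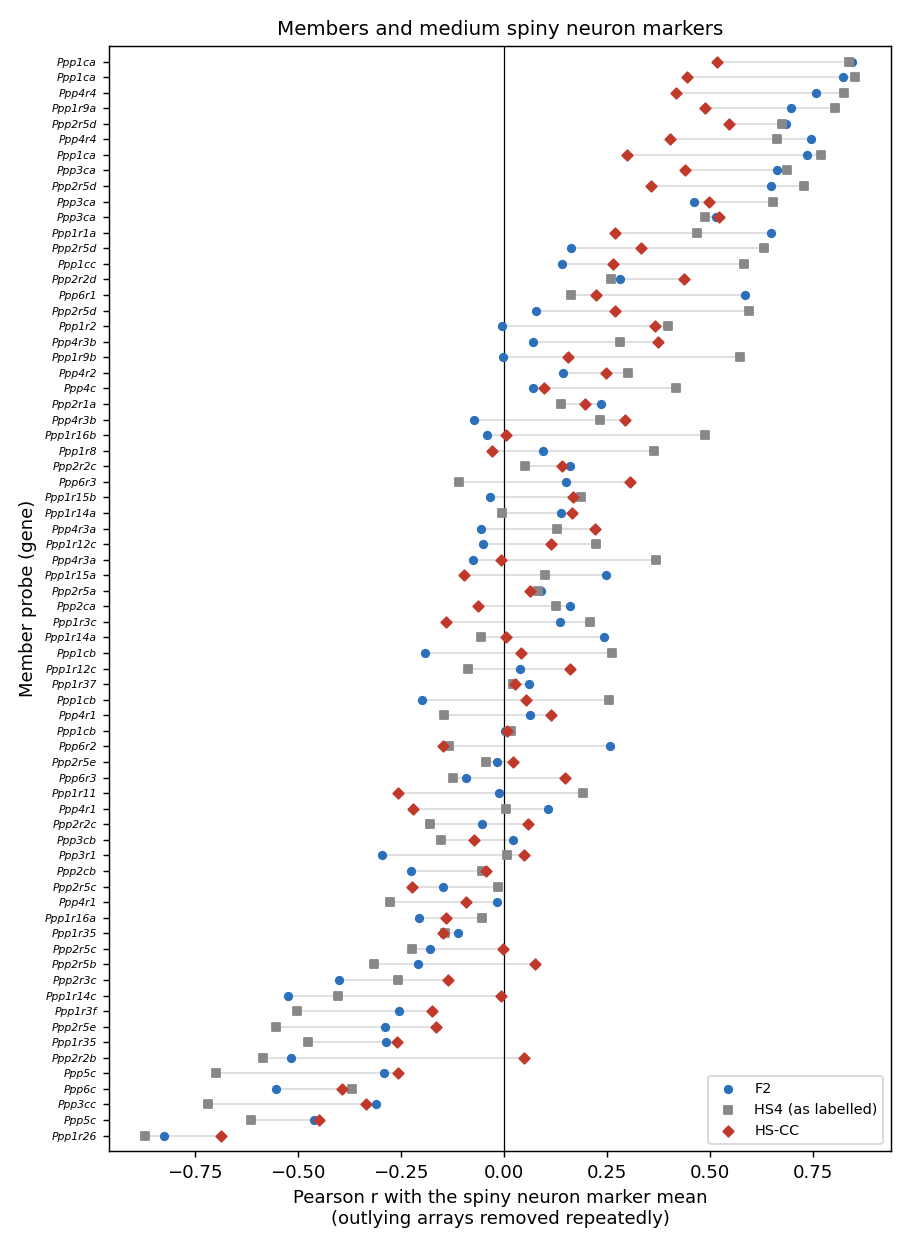
Pearson correlation (x axis) of each of 70 member probes (y axis, by gene) with the mean of the standardised spiny neuron markers, with outlying arrays removed repeatedly, in F2 (blue), the arrays labelled HS4 (grey) and HS-CC (red). Probes of Ppp1ca, Ppp4r4 and Ppp1r9a lie at the positive end and Ppp1r26 at the negative end in all 3 selections.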

How the data were processed

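The authors processed the bead array signals with lumi and deposited them on a log2 scale, quantile normalized within each selection. Which of the transformations that lumi offers lay behind that scale could not be read from the labels, so no difference is written as a fold change. Of 25697 probes, 23978 had 1 gene symbol. Columns of samples outside the labels numbered 0. Groups followed the labels. Differences were tested in each selection with limma 3.58.1 (lmFit and eBayes, R 4.3.3), two-sided, with Benjamini-Hochberg adjustment over all expressed probes and a threshold of 0.1; all 6 groups entered 1 fit for the difference between HS-CC and F2. Correlations and their permutation tests used Python 3.11.15 with numpy 2.4.6 and scipy 1.17.1. The number of arrays limits the precision. Tests were checked on simulated data.

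The members and lists were chosen with earlier results of these data known. Named were members past the threshold, catalytic subunits, main scaffold and targeting subunits, in F2 and HS-CC the 5 further members with the smallest p, the 5 pairs with the largest lowest correlation, holoenzyme pairs and partners of called genes. Ppp1r26, Ppp1r14a, Ppp1r12c, Ppp4r4 in its marker relation, the probes of Ppp4r3b and the regulators named were singled out after their values were seen. Alternatives were the more variable probes, no filter, an intensity trend, quantile normalization over all arrays, array weights, a threshold of 0.05, line means subtracted, and outlying arrays left out; removal of such arrays repeatedly, measured sex as a term and a fit without HS4 were added after seeing the data. Promoters and gene order came from RefSeq (GRCm38.p6).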

Additional observations from a re-analysis of the deposited data

How the results depend on the processing

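In HS-CC the 4 called members stayed called with no filter on low values, an intensity trend, quantile normalization over all arrays, measured sex as a term and a threshold of 0.05. Without the outlying array, a High animal, there were 6 and with array weights 6, the same 4 among them, and 3 of the 4 remained with outlying arrays removed repeatedly. Among the more variable probes 0 of 32 members were called, and none of the 4 was in that set. In F2 the count of 0 became 1 without outlying arrays (Ppp1r35), 5 with array weights and 4 with outlying arrays removed repeatedly (Ppp1r35, Ppp2r3c and 2 probes of Ppp3ca). In the arrays labelled HS4 it became 1 with array weights (Ppp1cb) and 2 with repeated removal (Ppp1cb and Ppp2r2c). For the difference between HS-CC and F2 it became 2 without outlying arrays and 1 without the HS4 arrays. The shares over all probes expressed in both rose there from 0.605% to 1.39% and 2.12%. Within each selection the share over all expressed probes was not taken under the alternatives. The members' counts there can therefore not be set against a general change in calls. The cause of these changes was not tested.

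Pairs with an absolute correlation over 0.5 numbered 339 in F2, and 117 without outlying arrays, 106 with repeated removal and 87 by Spearman. In HS4 the 594 pairs became 775 without outlying arrays, 200 with repeated removal and 221 by Spearman, and in HS-CC the 122 pairs became 61, 52 and 38 in the same order as in F2. Members with an absolute correlation over 0.5 with the spiny neuron markers in HS-CC went from 9 (12.3%) to 4 (5.48%) with repeated removal, beside 2.36% and 2.85% of all expressed probes other than the markers.

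Signs of differences that did not pass were less stable. Of 48 named probes, repeated removal turned the sign of 7 (F2), 20 (HS4) and 11 (HS-CC). Those that turned by more than their standard error were, in HS4 with array weights, Ppp2r5e (0.039), Ppp1cc (-0.022), Ppp3cc (0.029) and Ppp5c (0.0051). With repeated removal in HS4 they were Ppp2r5e (0.048), Ppp1cc (-0.020), Ppp4r1 (0.046 and -0.0055), Ppp1ca (-0.088, -0.097 and -0.11), Ppp1r3f (0.033), Ppp3cc (0.037), Ppp4r4 (-0.079) and Ppp5c (0.015). In HS-CC they were Ppp6c (0.049 with array weights and 0.041 with repeated removal), Ppp4r1 (-0.024) and Ppp3r1 (0.042), the last 2 with repeated removal. No paired analysis was possible because animals of different lines share no numbering that pairs them.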
